A study of Homo sapiens with 32 samples.

Results

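The kallikrein-related peptidases KLK5 to KLK14 are 10 secreted serine protease genes that lie side by side on human chromosome 19. They were taken by gene symbol from the deposited gene table, where they make up 10 of 60332 rows, and all 10 symbols were found once. The libraries are polyadenylated RNA-seq from 2 human lines: MCF10A, a non-transformed breast epithelial line, and hTERT RPE-1, a telomerase-immortalised retinal pigment epithelial line. There were 32 libraries in 16 groups of 2.

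In the first experiment (MCF10A), the groups were XRCC4 KO, STING KO and cGAS KO cells 5 d after 10 Gy, wild-type cells 5 d after 10 Gy with a CDK1 inhibitor (CDK1i), and wild-type cells left untreated or collected 3 d or 5 d after 10 Gy with DMSO. The labels name DMSO for the wild-type groups at 3 d and 5 d alone, so as labelled the untreated, XRCC4 KO, STING KO and cGAS KO groups differ from them in vehicle too. In the second experiment every MCF10A group was collected 3 d after 10 Gy: XRCC4 p53 double knockout (DKO) cells with and without an ATR inhibitor (ATRi), XRCC4 KO cells with and without ATRi, p53 KO cells and wild-type (WT) cells. In the third, RPE-1 cells that were p53 KO, WT with cGAS, or WT were collected 3 d after 10 Gy with ATRi. The knockout lines were made with lentiviral CRISPR-Cas9 and grown out from single cells, so an effect of the gene and an effect of the clone cannot be told apart, and no unirradiated knockout group was analysed here. Replicates carry numbers but nothing says that they came from separate cultures, so p-values measure the spread between these libraries, which may be technical.

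Kallikrein-related peptidases are made as inactive precursors, secreted, and switched on by removal of a short propeptide, often by another member, so that they act as a cascade. In the outer epidermis KLK5, KLK7 and KLK14 cut the adhesion proteins that hold dead cells together, and inhibitors of the SPINK family hold them back. Most members have trypsin-like activity, whereas KLK7 is chymotrypsin-like, and KLK10 was first described as a gene of normal breast epithelial cells that is silent in many breast tumour lines.

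On hg19 the deposited intervals place KLK5, KLK6, KLK7, KLK8 and KLK9 in 1 shared interval, chr19:51446559-51515385, followed by KLK10 at chr19:51515995-51523431, KLK11 at chr19:51525472-51531295, KLK12 at chr19:51532348-51538486, KLK13 at chr19:51559463-51568371 and KLK14 at chr19:51580752-51587502. The identifiers in the table are ENSG00000167754 for KLK5, ENSG00000169035 for KLK7, ENSG00000129455 for KLK8 and ENSG00000129451 for KLK10. RefSeq (GRCh38.p14) supplied a promoter for 9 of the 10 genes, 16 promoters in all; KLK8 had no entry. The 250 bases before the first listed start are shown for KLK5, KLK7 and KLK10, because these are the 3 members with the most counts and the results turn on them. They are written 5′ to 3′ on the minus strand, and capitals mark matches to TATAA on either strand. KLK5 is chr19:50953039-50953288, KLK7 is chr19:50983918-50984167 and KLK10 is chr19:51019862-51020111.
KLK5: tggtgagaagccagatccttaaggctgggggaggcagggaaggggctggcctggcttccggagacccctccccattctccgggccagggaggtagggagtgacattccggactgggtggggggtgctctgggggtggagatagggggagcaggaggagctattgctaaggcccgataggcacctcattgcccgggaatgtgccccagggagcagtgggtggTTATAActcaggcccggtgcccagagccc
KLK7: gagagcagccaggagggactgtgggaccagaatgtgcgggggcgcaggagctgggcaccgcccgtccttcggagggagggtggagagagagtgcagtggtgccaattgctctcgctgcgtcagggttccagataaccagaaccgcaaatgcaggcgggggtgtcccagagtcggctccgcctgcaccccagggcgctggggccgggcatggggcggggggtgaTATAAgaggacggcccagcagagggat
KLK10: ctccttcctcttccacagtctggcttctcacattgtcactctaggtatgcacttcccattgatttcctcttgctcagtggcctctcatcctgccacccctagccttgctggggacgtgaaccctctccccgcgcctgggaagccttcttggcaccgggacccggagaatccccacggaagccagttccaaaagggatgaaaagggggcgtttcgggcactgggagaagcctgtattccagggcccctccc
In KLK5 a match on each strand overlapped, starting 29 and 28 bases before the start (positions -29 and -28), in KLK7 the match began at -27, and the KLK10 stretch held none. TATAA, a motif added after the sequences were seen, occurred in 5 of the 16 member promoters (3 genes), against 20.4% of all 35116 promoters of the same length (300 bases, both strands). Promoters of the same gene can overlap, so the KLK7 site and the KLK14 site were each counted again in an overlapping promoter. TATAAA, the AP-1 motif TGANTCA and the interferon-response motif (a pair of GAAA with any 2 bases between them) were found in 0 of the 16 member promoters, against 11.5%, 7.71% and 3.57% of all promoters. CACCTG, an E-box, was found in 7 of the 16, in 6 genes, against 20.6% of all promoters.

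Libraries held between 5590061 and 18585999 counts. The targeted genes checked the labels in part. The cGAS transcript (MB21D1) averaged 1.27 CPM (counts scaled to library size by TMM) in cGAS KO cells, against 16.2 CPM in irradiated wild-type cells at 5 d, and the STING transcript (TMEM173) 9.56 CPM in STING KO cells, against 68.2 CPM. In RPE-1, MB21D1 had 6199 and 6158 counts in WT cGAS libraries, against 2 and 100 counts in WT libraries, so the WT replicates stood apart there. XRCC4 averaged 8.58 CPM in XRCC4 KO cells at 3 d, against 7.10 CPM in WT cells; a small edit need not lower an mRNA, so this level checks nothing. Basal breast epithelial markers (10 of 10 above 0 in every MCF10A library) summed to 52.1 to 199 CPM in RPE-1 and 9014 to 27357 CPM in MCF10A. Retinal pigment epithelial markers summed to 45.5 to 53.8 CPM in RPE-1 and 8.71 to 27.7 CPM in MCF10A, but their defining genes RPE65 and TYR had at most 1 count in any RPE-1 library. Of the same list, OTX2 had 268 to 487 counts in RPE-1 and 0 to 1 in MCF10A, and MITF 268 to 539 in RPE-1 and 31 to 276 in MCF10A. The 10 immune and blood cell markers summed to 1.14 to 5.80 CPM in RPE-1 and 6.06 to 79.4 CPM in MCF10A, where CD14 had 42 to 1151 counts, ITGAM 4 to 85 and PPBP 0 to 81, while PTPRC had 0 to 5 and MS4A1 was at 0 in all 32 libraries. In bulk RNA, fewer expressing cells and less RNA per cell cannot be told apart.

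KLK transcripts were close to undetected in RPE-1 and varied widely in MCF10A. The 10 genes together had 36 counts in 6 RPE-1 libraries, 1 to 14 in a library, and 43164 counts in 26 MCF10A libraries, 39 to 10451 in a library. In MCF10A the rounded counts were concentrated in KLK10, KLK7 and KLK5, and over all 32 libraries they came to 18287 for KLK10, 10107 for KLK7, 9832 for KLK5, 3443 for KLK8, 681 for KLK11, 419 for KLK14, 209 for KLK6, 130 for KLK9, 89 for KLK13 and 3 for KLK12. KLK12 had 1 count in 3 libraries and was not tested anywhere. KLK7, KLK8 and KLK9 had no count in RPE-1, where 3 counts over the 6 libraries would be 0.0287 CPM; this covers counting error only.

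**Figure D1:**
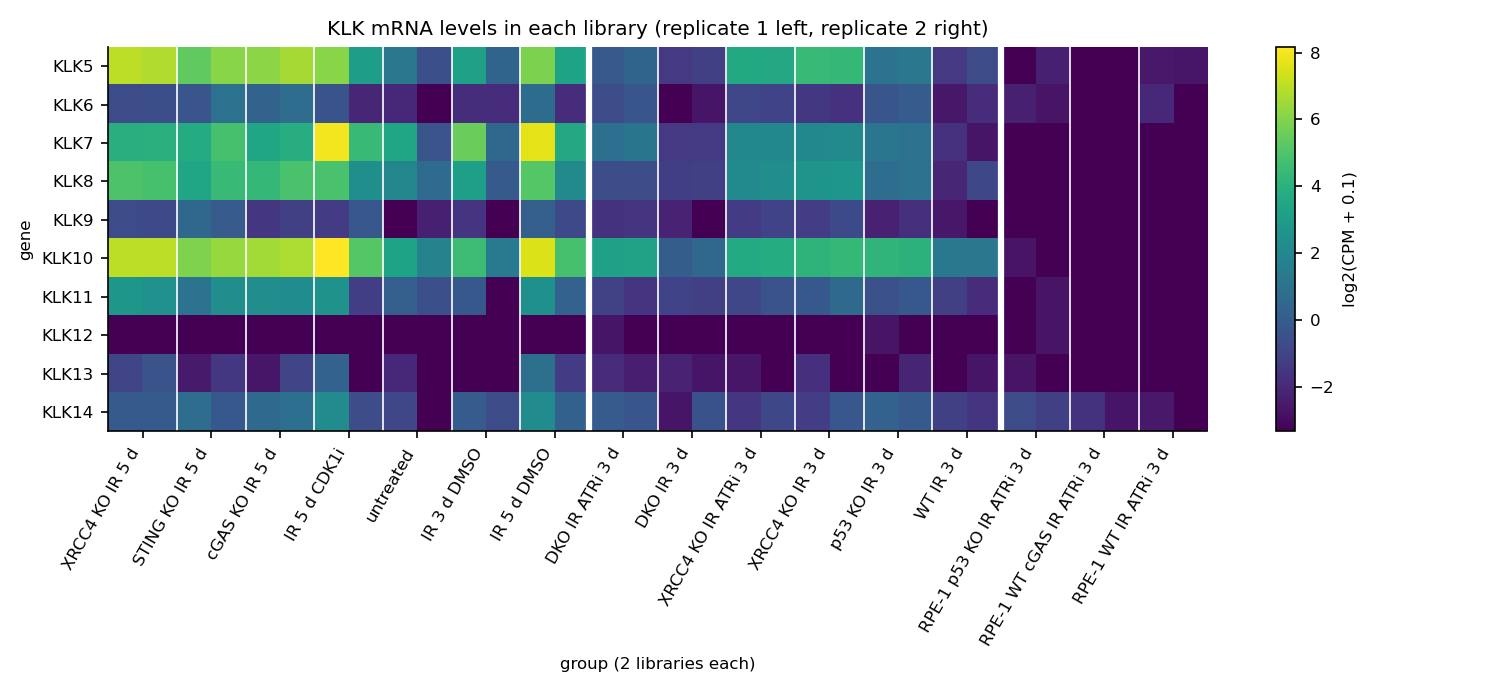
Level of each of the 10 KLK genes (rows) in each of the 32 libraries (columns, replicate 1 left of replicate 2 within a group), as log2 of CPM plus 0.1; thick white lines part the 3 experiments. KLK5, KLK7, KLK8 and KLK10 carry most of the signal, replicate 1 is the brighter library in the wild-type groups of the first experiment, and the RPE-1 columns on the right are dark.

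KLK14, a trypsin-like protease that can activate KLK5, held 23 of the 36 RPE-1 counts. It had 10 and 7 counts in p53 KO libraries, 4 and 1 in WT cGAS libraries, and 1 and 0 in WT libraries. The p53 KO counts lay above both WT counts, and WT cGAS overlapped WT. Of the genes tested, 83.2% did not overlap between p53 KO and WT, and 79.4% between WT cGAS and WT, higher or lower. The ratio of KLK14 counts per library total was 15.4 for p53 KO over WT (95% exact interval 2.41 to 642) and 4.58 for WT cGAS over WT (0.513 to 217), intervals that cover counting error only. No member passed the filter on low counts in RPE-1, so none was tested, while 66.7% of the 15469 genes tested were called (adjusted p below 0.05) for p53 KO against WT and 59.8% for WT cGAS against WT.

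Where lengths are divided out (FPKM), KLK8 and KLK10 were among the 3 highest members in all 13 MCF10A groups, KLK5 in 6 and KLK7 in 5 of them. At 5 d after irradiation with DMSO the mean deposited FPKM was 82.9 for KLK8, 67.1 for KLK10, 61.1 for KLK7 and 24.0 for KLK5. The place of KLK8, a trypsin-like member also called neuropsin, is uncertain. Its FPKM implied a length of 223 bases, against 1550 for KLK10, 1786 for KLK7 and 1389 for KLK5, and 747 of its 1865 exon bases overlap AC011473.4 on the same strand (GENCODE v29). KLK9 shares 787 of 840 exon bases with the same locus. Both genes had fractional counts in most libraries (34.4% of KLK8 values and 40.6% of KLK9 values were whole), so how reads were divided among these genes is not known. Genes annotated on the opposite strand share 202 of 1653 exon bases of KLK5, 401 of 1976 of KLK6 and 240 of 3853 of KLK10, and the sources do not say whether reads were counted by strand.

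The second experiment had close replicates. The KLK genes together summed to 3.81 and 3.98 CPM in its WT libraries. Wild-type libraries at 3 d with DMSO in the first experiment summed to 90.7 and 6.69 CPM. The p53 KO (26.6 and 25.3 CPM) and XRCC4 KO (50.4 and 53.7 CPM) sums lay between those values. Rises over WT, and the difference in p53 effect, rest on this low WT group, and levels across experiments were not tested. In the WT libraries KLK7 had 3 and 1 counts, KLK5 had 4 and 9, and KLK8 had 2 and 8. The sizes of fold changes over WT are therefore less certain for these genes. In the p53 KO cells, all 7 tested members were higher than in WT cells, with a median of 2.42 on the log2 scale, against 0.01 over all genes tested. Of the 7, 7 rose, where 25.9% of all genes rose. KLK7, the chymotrypsin-like protease, had 2.21 and 1.91 CPM in p53 KO libraries, against 0.208 and 0.0585 CPM in WT libraries, and rose by 3.95 ± 0.47 (log2 fold change ± SE, adjusted p = 7.09e-08). KLK10, for which no protease activity is well established, had 18.1 and 16.4 CPM in p53 KO libraries, against 2.35 and 2.28 CPM in WT libraries, and rose by 2.90 ± 0.15 (adjusted p = 8.86e-15). KLK5, a trypsin-like protease that activates other members, had 2.00 and 2.23 CPM in p53 KO libraries, against 0.277 and 0.527 CPM in WT libraries, and rose by 2.33 ± 0.36 (adjusted p = 5.33e-06). In none of the 7 did the 2 groups overlap, as in 74.2% of all genes tested. KLK8 rose by 2.42 ± 0.41 and KLK6, a trypsin-like member abundant in brain, by 2.62 ± 0.62, the last with 14 and 14 counts in p53 KO libraries, against 1 and 3 in WT libraries. KLK14 rose by 1.77 ± 0.58 (adjusted p = 0.0124) and KLK11, a trypsin-like member, by 1.44 ± 0.56 (adjusted p = 0.0347). The KLK14 call was lost without WT replicate 2 (1.4996) or p53 KO replicate 1 (1.56), and the KLK11 call without WT replicate 2 (1.00), p53 KO replicate 1 (1.61) or p53 KO replicate 2 (1.28). DESeq2 did not call KLK6 (adjusted p = 0.0540), KLK11 or KLK14.

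In XRCC4 KO cells without ATRi, KLK5 was the member that differed most from WT. It had 21.0 and 20.0 CPM in XRCC4 KO libraries, against 0.277 and 0.527 CPM in WT libraries, a log2 fold change of 5.61 ± 0.21 (adjusted p = 7.52e-18). KLK7 had 4.01 and 4.35 CPM in XRCC4 KO libraries, against 0.208 and 0.0585 CPM in WT libraries, and rose by 4.96 ± 0.40. In counts, this was 61 and 62, against 3 and 1. KLK8 had 6.04 and 6.39 CPM in XRCC4 KO libraries, against 0.138 and 0.468 CPM in WT libraries, and rose by 4.26 ± 0.30. Every XRCC4 KO library was above both WT libraries for these genes, and 78% of all genes tested did not overlap between these groups, higher or lower. KLK10 had 17.4 and 19.9 CPM in XRCC4 KO libraries, against 2.35 and 2.28 CPM in WT libraries, and rose by 3.01 ± 0.15. KLK11 rose by 2.11 ± 0.52, a call not made by DESeq2 (adjusted p = 0.0594) or by limma on FPKM (adjusted p = 0.125 to 0.171). In all, 5 of 7 tested members rose, where 28.6% of all genes rose, and the median over the 7 was 3.01, against -0.01 over all genes. KLK6 (0.87 ± 0.86, adjusted p = 0.406) and KLK14 (0.91 ± 0.69, adjusted p = 0.275) did not pass the test. The p53 KO and XRCC4 KO comparisons share the WT libraries. The level of KLK10 was close in both knockouts, at 17.3 ± 1.18 CPM in p53 KO cells and 18.7 ± 1.80 CPM in XRCC4 KO cells (SD, n = 2 each), while KLK5 was at 2.12 ± 0.17 CPM in p53 KO cells and 20.5 ± 0.71 CPM in XRCC4 KO cells.

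**Figure D2:**
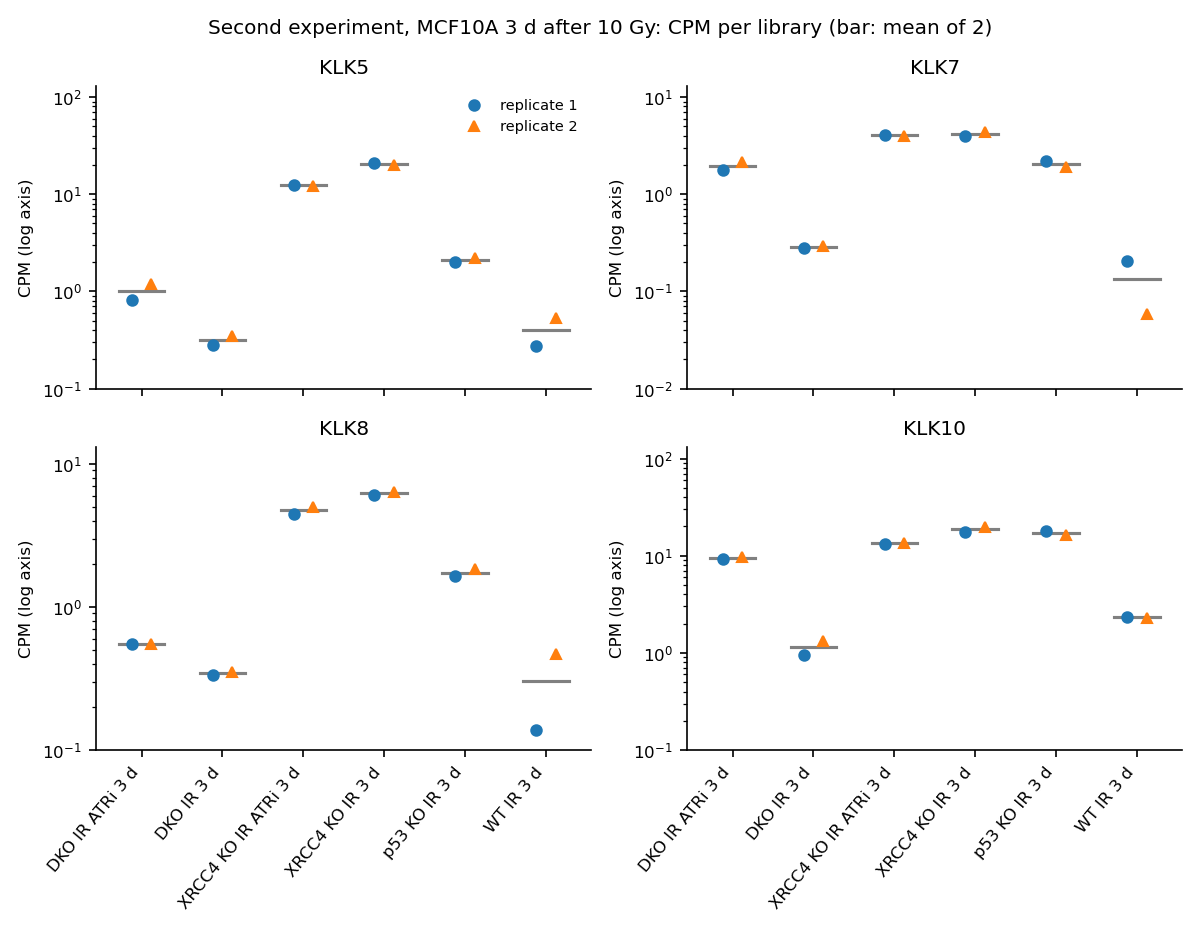
CPM on a log axis for KLK5, KLK7, KLK8 and KLK10 in the 6 MCF10A groups of the second experiment, with 1 point a library and a bar at the mean of 2. The XRCC4 KO and p53 KO groups lie above WT in each panel, WT and DKO are the 2 lowest groups in each panel, and the DKO ATRi libraries lie above the DKO libraries in each panel, a difference that KLK8 did not pass.

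In cells without both p53 and XRCC4, the members were low again. In DKO cells, 6 of 7 tested members fell relative to XRCC4 KO cells, where 32.7% of all genes fell, and the median was -3.84, against 0.02 over all genes. KLK5 had 0.280 and 0.349 CPM in DKO libraries, against 21.0 and 20.0 CPM in XRCC4 KO libraries, and fell by 5.997 ± 0.211 (log2, adjusted p = 1.14e-18). KLK10 had 0.952 and 1.34 CPM in DKO libraries, against 17.4 and 19.9 CPM in XRCC4 KO libraries, and fell by 4.02 ± 0.17. The 2 groups did not overlap for either gene, as for 82.4% of all genes tested, higher or lower. KLK8 fell by 4.15 ± 0.29, KLK7 by 3.84 ± 0.32 and KLK11 by 1.57 ± 0.46. KLK6 fell by 2.77 ± 1.13 (adjusted p = 0.0335) on 0 and 1 counts in DKO libraries, against 4 and 3 in XRCC4 KO libraries, a ratio of 0.140 whose 95% counting interval, 0.00311 to 1.09, holds 1. The KLK6 call was lost without XRCC4 KO replicate 1 (-2.61), XRCC4 KO replicate 2 (-2.92) or DKO replicate 1 (-1.91), and the KLK11 call without XRCC4 KO replicate 2 (-1.08). Neither gene was called by DESeq2 (adjusted p = 0.157 for KLK6 and 0.129 for KLK11). KLK14 had 1 and 11 counts in DKO libraries, against 5 and 11 in XRCC4 KO libraries, a log2 fold change of -0.65 ± 0.65 (adjusted p = 0.387) that became -3.13 and passed the test without DKO replicate 2.

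Set against p53 KO cells, which share the p53 loss, 6 of 7 members fell in DKO cells, where 25% of all genes fell. KLK10 fell by 3.92 ± 0.17 (adjusted p = 3.96e-16), KLK7 by 2.83 ± 0.38, KLK5 by 2.72 ± 0.37 and KLK8 by 2.31 ± 0.39. KLK6 had 0 and 1 counts in DKO libraries, against 14 and 14 in p53 KO libraries, and fell by 4.52 ± 0.81, a ratio of 0.0335 with a counting interval of 0.000819 to 0.203. KLK14 fell by 1.52 ± 0.54 (adjusted p = 0.0219), a call lost without p53 KO replicate 1 (-1.30) or DKO replicate 1 (-0.63) and not made by DESeq2 (adjusted p = 0.261). KLK11 gave -0.90 ± 0.50 (adjusted p = 0.140). So loss of p53 went with higher KLK levels in XRCC4-proficient cells and with lower levels in XRCC4 KO cells. The difference between these effects was negative and past the threshold in 7 of 7 members, where 22.8% of all genes had a called negative difference, with a median of -6.57, against 0.01 over all genes. It was -8.33 ± 0.45 for KLK5, -7.79 ± 0.56 for KLK7, -6.92 ± 0.23 for KLK10 (adjusted p = 2.71e-18), -6.57 ± 0.50 for KLK8, -5.39 ± 1.29 for KLK6, -3.01 ± 0.73 for KLK11 and -2.43 ± 0.88 for KLK14 (adjusted p = 0.0284). The KLK14 call was lost without WT replicate 2 (-2.16), p53 KO replicate 1 (-2.22), XRCC4 KO replicate 2 (-1.72) or DKO replicate 1 (-1.54). DESeq2 gave KLK11 an adjusted p of 0.0550 and KLK14 one of 0.198, and gave KLK6 none.

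ATRi went with lower KLK5 and KLK10 in XRCC4 KO cells and with higher levels in DKO cells. In XRCC4 KO cells KLK5 had 12.5 and 12.2 CPM with ATRi, against 21.0 and 20.0 CPM without, and fell by 0.73 ± 0.10 (adjusted p = 4.74e-06). KLK10 had 13.04 and 13.67 CPM with ATRi, against 17.4 and 19.9 CPM without, and fell by 0.48 ± 0.10 (adjusted p = 0.00127). These were 2 of 7 members, where 10.3% of all genes fell. The groups did not overlap for either gene, as for 54.5% of all genes tested. DESeq2 did not call KLK10 (adjusted p = 0.0977), and limma on FPKM called neither KLK5 (adjusted p = 0.0777 to 0.564) nor KLK10 (0.0754 to 0.184). KLK7 had 4.07 and 4.02 CPM with ATRi, against 4.01 and 4.35 CPM without (-0.05 ± 0.18). In DKO cells KLK10 had 9.33 and 9.69 CPM with ATRi, against 0.952 and 1.34 CPM without, and rose by 3.05 ± 0.19 (adjusted p = 5.09e-13). KLK7 had 1.76 and 2.12 CPM with ATRi, against 0.280 and 0.291 CPM without, and rose by 2.74 ± 0.37. KLK5 had 0.8230 and 1.2003 CPM with ATRi, against 0.280 and 0.349 CPM without, and rose by 1.69 ± 0.43 (adjusted p = 0.00167). Both ATRi libraries exceeded both DKO libraries without it in each of these genes, and 79.9% of all genes tested did not overlap, higher or lower. The KLK5 call was not made by limma on FPKM (adjusted p = 0.0699 to 0.0928). KLK6 had 10 and 16 counts with ATRi, against 0 and 1 without, and rose by 4.19 ± 0.84, a ratio of 26.1 with a counting interval of 4.28 to 1069. Hence 4 of 7 rose, where 26.1% of all genes rose. KLK8 (0.68 ± 0.49), KLK14 (1.21 ± 0.55, adjusted p = 0.0627) and KLK11 (-0.30 ± 0.59) did not pass. The difference in the ATRi effect, DKO minus XRCC4 KO, was positive and past the threshold in 4 of 7 members, where 13% of all genes had a called positive difference, at 3.53 ± 0.22 for KLK10 (adjusted p = 2.82e-12), 2.79 ± 0.43 for KLK7, 2.42 ± 0.44 for KLK5 and 3.38 ± 1.22 for KLK6 (adjusted p = 0.0329). The KLK6 call was lost without either XRCC4 KO replicate, either XRCC4 KO ATRi replicate, DKO replicate 1 or DKO ATRi replicate 2, with values from 2.50 to 3.52. It was also lost in edgeR without the filter on low counts (adjusted p = 0.0618) and in limma on FPKM plus 1 (adjusted p = 0.0632). DESeq2 gave KLK6 no adjusted p. The KLK5 difference was not called by limma on FPKM plus 0.1 (1.77, adjusted p = 0.0740, or 0.0979 without a filter). Without DKO replicate 2, KLK14 passed as well, at 3.66 for ATRi in DKO cells and at 4.25 for the difference.

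**Figure D3:**
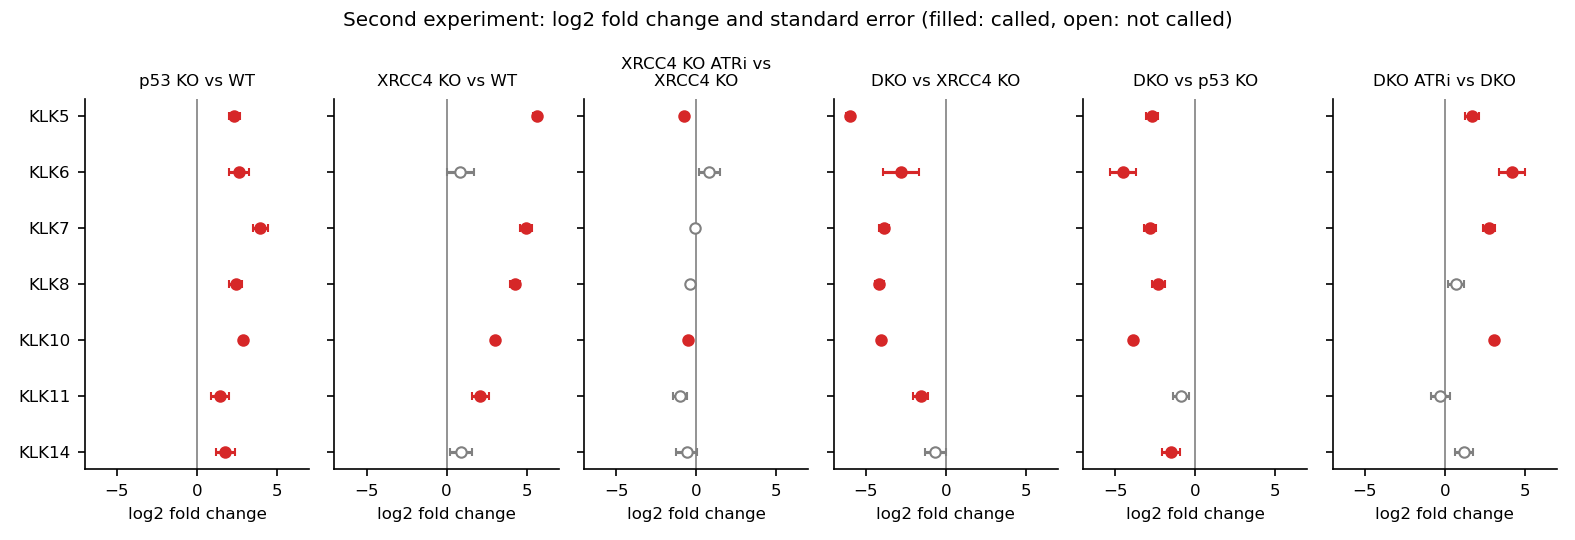
Log2 fold change with its standard error for the 7 tested members in 6 comparisons of the second experiment, filled where the adjusted p was below 0.05. The points lie right of 0 for p53 KO and XRCC4 KO against WT, left of 0 for DKO against either single knockout, and right of 0 for all but KLK11 in DKO with ATRi against DKO.

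The libraries of the first experiment need a caution before their results. In the 4 wild-type groups replicate 1 had far more KLK RNA than replicate 2. The 10 members summed to 507 and 57.4 CPM (replicates 1 and 2) at 5 d with DMSO, 651 and 71.5 CPM with CDK1i, 90.7 and 6.69 CPM at 3 d, and 28.8 and 6.98 CPM untreated. The ratio of replicate 1 to replicate 2 over KLK5, KLK7, KLK8 and KLK10 was 2.51 to 15.6 untreated, 7.92 to 34.2 at 3 d, 6.04 to 17.2 at 5 d and 5.62 to 11.6 with CDK1i, against 0.479 to 1.16 in the 3 knockout groups. Other gene groups moved with the replicate number too: interferon-stimulated genes summed to 14088 and 4403 CPM at 5 d with DMSO, and mitotic genes to 197 and 632 CPM in untreated cells. Their part in the KLK results was not tested. Below, values or counts of members without 1 of the 2 replicates are therefore given too, choices made after seeing the data. Not every changed call is listed, and genes outside the 10 members were not checked gene by gene in this way. Without replicate 1 or 2 of every wild-type group, each of these groups is 1 library that is assumed to vary like the knockout groups, which alone supply the spread, so calls made that way are not replicated. The STING KO replicates stood apart as well. Between the 2 libraries of a group, chi-square per gene (genes with at least 20 counts) was 27.6 in STING KO. It was 21.5 to 45.1 in the wild-type groups, 2.95 in cGAS KO and 3.38 in XRCC4 KO.

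**Figure D4:**
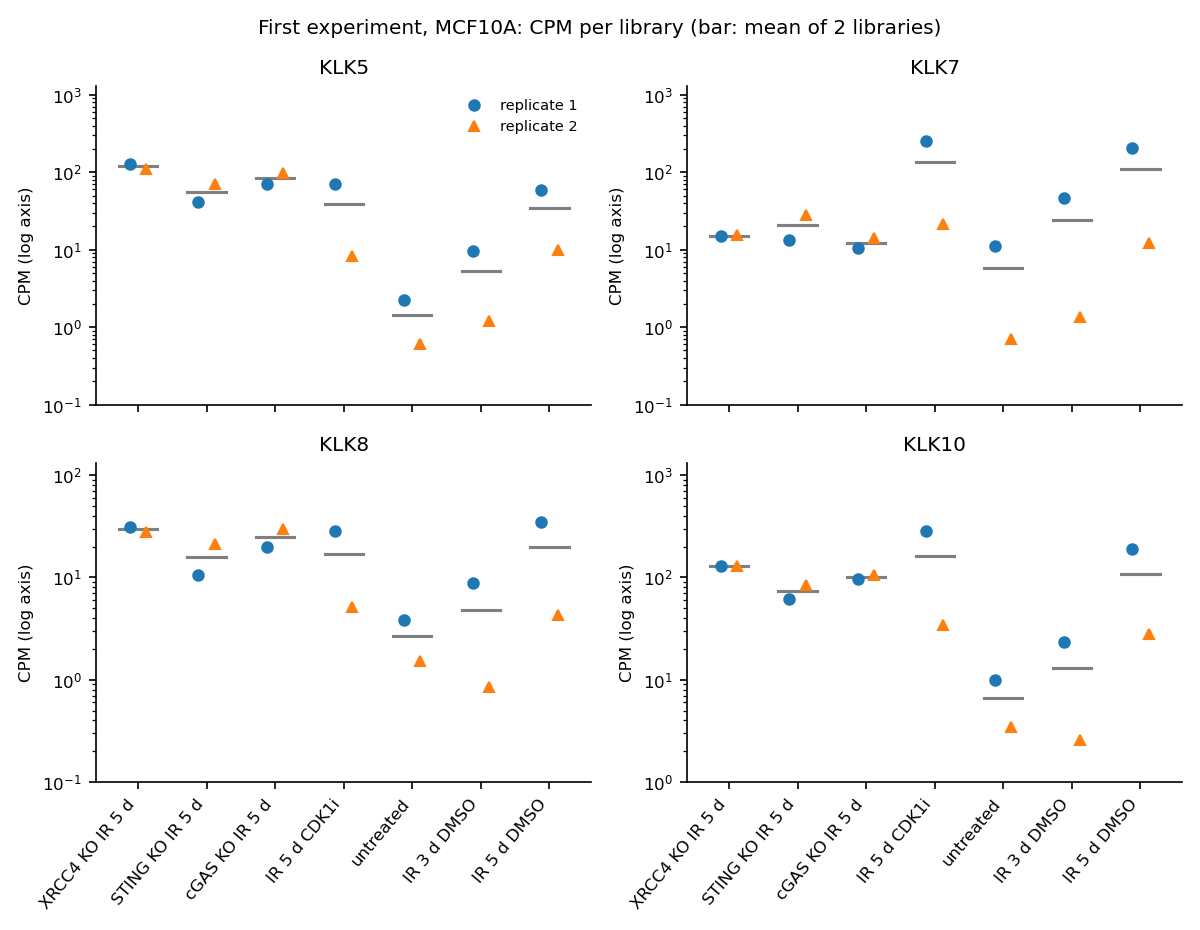
CPM on a log axis for KLK5, KLK7, KLK8 and KLK10 in the 7 MCF10A groups of the first experiment, with 1 point a library and a bar at the mean of 2. Replicate 1 (circles) lies far above replicate 2 (triangles) in the untreated, IR 3 d DMSO, IR 5 d DMSO and CDK1i groups. The replicates lie closer together in the XRCC4 KO and cGAS KO groups, and less so in the STING KO group (KLK7 at 13.42 and 28.01 CPM).

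At 5 d after irradiation wild-type cells had more KLK RNA than untreated cells. KLK5 had 59.8 and 9.90 CPM at 5 d, against 2.27 and 0.607 CPM untreated, and rose by 4.49 ± 1.35 (adjusted p = 0.0344). KLK10 had 189 and 27.9 CPM at 5 d, against 9.88 and 3.44 CPM untreated, and rose by 3.98 ± 1.26 (adjusted p = 0.0411). KLK9 had 15 and 8 counts at 5 d, against 0 and 1 untreated, and rose by 3.84 ± 1.15 (adjusted p = 0.0246), a ratio of 16.5 with a counting interval of 2.69 to 681. These 3 of 9 tested members rose, where 15.1% of all genes rose. In all 9 the 5 d libraries lay above the untreated ones, while 63.6% of all genes did not overlap in either direction, higher or lower. KLK7 had 208 and 12.1 CPM at 5 d, against 11.1 and 0.708 CPM untreated (4.14 ± 1.74, adjusted p = 0.103). KLK8 gave 2.81 (adjusted p = 0.106), KLK14 3.40 (adjusted p = 0.0729), KLK6 3.17 (adjusted p = 0.0846), KLK13 3.42 (adjusted p = 0.122) and KLK11 1.88 (adjusted p = 0.267), and none of these passed. DESeq2 called KLK14 (adjusted p = 0.0141) and KLK7 (adjusted p = 0.0456) but not KLK9 (adjusted p = 0.0544). With the replicate number as a block KLK14 passed too (adjusted p = 0.0147). The median over the 9 was 3.42, against 0.00 over all genes. Without untreated replicate 1 or IR 5 d replicate 1, 0 of 9 members were called, with KLK5 at 5.81 and 2.68, KLK10 at 4.97 and 2.02, and KLK9 at 2.75 and 3.21. Without untreated replicate 2, 1 was called, as KLK5 (3.93, adjusted p = 0.149) and KLK10 (3.45, adjusted p = 0.176) lost the call. It was 7 without IR 5 d replicate 2. With 1 library a group, it was 4 without replicate 1 of every wild-type group and 9 without replicate 2, and the spread then came from the knockout groups alone.

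At 3 d the KLK levels of irradiated wild-type cells overlapped those of untreated cells for 7 of 9 tested members, and 48.5% of all genes tested did not overlap. No member was called against untreated cells (0 of 9, 0 at an unadjusted p under 0.05, and 0 with DESeq2), where 6.52% of all genes were called, and the median was 1.07. KLK5 had 9.510 and 1.201 CPM at 3 d, against 2.27 and 0.607 CPM untreated, and KLK7 had 46.9 and 1.37 CPM at 3 d, against 11.1 and 0.708 CPM untreated. In both genes the ranges of the 2 groups overlapped. Between 5 d and 3 d, 0 of 9 were called by edgeR and 0 by DESeq2, 3 and 4 at an unadjusted p under 0.05, where 0.263% of all genes were called, and the median was 2.16. KLK13, a trypsin-like member, had 26 and 5 counts at 5 d, against 0 and 0 at 3 d, at least 7.05-fold higher when 3 counts across both 3 d libraries are taken as the least detectable. From replicate 2 at 5 d alone the bound was 2.16-fold. Without replicate 2 of the wild-type groups 4 members were called at 5 d against 3 d, and 1 without replicate 1.

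The KLK levels with CDK1i and with DMSO could not be told apart. The replicates of each group lay so far apart that a modest difference could go unseen. With the replicate number as a block, 0 members were called as well. KLK10 had 287 and 34.6 CPM with CDK1i, against 189 and 27.9 CPM with DMSO at 5 d, and KLK7 had 253 and 21.8 CPM with CDK1i, against 208 and 12.1 CPM with DMSO. The groups overlapped in all 9 tested members, while 56.7% of all genes tested did not overlap. None was called (0 at an unadjusted p under 0.05, 0 with DESeq2), where 12.1% of all genes were called, and the median was -0.09. In the same comparison 25 of 25 interferon-stimulated genes fell, with a median of -5.36. KLK10 gave a log2 fold change of 0.57 ± 1.05 (SE, adjusted p = 0.765), and the spread between replicates was wider than this difference.

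In the knockout lines at 5 d, KLK7 averaged lower and KLK5 higher than in wild-type cells, but no member passed the test. KLK7 had 10.63 and 14.03 CPM in cGAS KO, 13.42 and 28.01 CPM in STING KO and 15.004 and 15.34 CPM in XRCC4 KO libraries, against 208 and 12.1 CPM in wild-type libraries, with log2 fold changes of -3.17 ± 1.62, -2.41 ± 1.56 and -2.86 ± 1.61. KLK5 had 70.8 and 97.2 CPM in cGAS KO, 41.0 and 69.6 CPM in STING KO and 129 and 112 CPM in XRCC4 KO libraries, against 59.8 and 9.90 CPM in wild-type libraries, with log2 fold changes of 1.27, 0.67 and 1.80. For KLK7 the knockout libraries lay between the 2 wild-type libraries, apart from cGAS KO replicate 1, which was below both, while for KLK5 the cGAS KO and XRCC4 KO libraries lay above both. Of the 9 members, 1 lay wholly higher and 1 wholly lower in cGAS KO, 0 and 1 in STING KO, and 2 and 1 in XRCC4 KO. Over all genes tested, 66.2%, 59.2% and 72.2% did not overlap in these lines, higher or lower. Against wild type, edgeR called 0 of 9 members in each line (0 at an unadjusted p under 0.05, 0 with DESeq2), where 13.5% of all genes were called for cGAS KO, 15.2% for STING KO and 24.7% for XRCC4 KO.

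These knockout results rested on which wild-type replicate was used. KLK10 had 96.4 and 106 CPM in cGAS KO and 61.2 and 84.6 CPM in STING KO libraries, against 189 and 27.9 CPM in wild-type libraries. Without replicate 1 of the wild-type groups the log2 difference of KLK10 was 1.86 in cGAS KO and 1.39 in STING KO, and without replicate 2 it was -0.88 in cGAS KO and -1.35 in STING KO. Without replicate 1, KLK5 was at 3.09, 2.48 and 3.61 in cGAS KO, STING KO and XRCC4 KO, and without replicate 2, KLK7 was at -4.07, -3.32 and -3.76. Against the other wild-type replicate, both genes in the knockout lines stood closer to wild type. That replicate had 59.8 CPM of KLK5 (replicate 1) and 12.1 CPM of KLK7 (replicate 2). Other members moved too. Without replicate 1, KLK10 was at 2.21 in XRCC4 KO, KLK8 at 2.50 in cGAS KO and 2.77 in XRCC4 KO. KLK11 was then at 2.09 in cGAS KO and 2.43 in XRCC4 KO, and KLK6 at 2.88 in cGAS KO. Without replicate 2, KLK14 was at -1.54, -1.85 and -2.37 in cGAS KO, STING KO and XRCC4 KO. KLK13 was then at -2.96 in cGAS KO and -3.33 in STING KO. Each of these values sets 1 wild-type library against 2 knockout libraries, with the spread taken from the knockout groups.

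Across the 16 groups, KLK5 averaged most in XRCC4 KO cells at 5 d (120 ± 12.3 CPM, SD, n = 2), followed by cGAS KO and STING KO cells at 5 d, CDK1i and DMSO at 5 d, and XRCC4 KO cells at 3 d (20.5 ± 0.71 CPM). In that order the libraries of neighbouring groups overlapped from STING KO at 5 d through XRCC4 KO at 3 d. KLK7 averaged most with CDK1i and with DMSO at 5 d, where groups overlapped, and least among MCF10A groups in WT at 3 d. KLK8 was highest in XRCC4 KO and cGAS KO cells at 5 d and KLK10 with CDK1i and in XRCC4 KO cells at 5 d, each pair overlapping. These orders cross experiments that were run apart, so they are levels and not tests. Over the 13 MCF10A group means (log2 CPM), Pearson's r was 0.98 for KLK5 with KLK8, 0.93 for KLK5 with KLK10 and for KLK8 with KLK10, and 0.82 for KLK5 with KLK7, and all of these share libraries and normalization.

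The genes most like KLK10 over the same 13 means, of 13687 compared, were TINCR (0.96), AP001266.1 (0.94), RAB11FIP1 (0.93), MAL2 (0.93) and AP5B1 (0.92). Those most like KLK7 were FOXO3 (0.93), RPAP2 (0.93), BDP1 (0.91), ZDHHC11B (0.91) and USF3 (0.88). These are descriptions over means that share controls and replicates that stand apart.

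Genes that act on kallikreins were listed from what is known of them in skin, with earlier results known. Of 14 inhibitors, 12 were tested. Their results at 5 d against untreated use the wild-type libraries whose replicates stood apart, and were not checked with a replicate left out. At 5 d against untreated, 5 rose and 1 fell: A2ML1, a protease trap of stratified epithelium, had 131 and 17.3 CPM, against 0.439 and 0.101 CPM untreated (7.93 ± 2.27), SPINK6, an inhibitor of KLK5 and KLK7, had 37.3 and 25.4 CPM, against 0.366 and 0 CPM (7.15 ± 1.14), and PI3, which encodes elafin, rose by 4.32 ± 0.90. In XRCC4 KO cells at 3 d, 4 rose and 7 fell relative to WT: A2ML1 had 66.1 and 71.4 CPM in XRCC4 KO libraries, against 0.623 and 1.05 CPM in WT libraries (6.31 ± 0.23), SPINK6 rose by 4.01 ± 0.12, and SERPINA3, which encodes a chymotrypsin inhibitor, fell by 4.74 ± 0.07. In DKO cells against XRCC4 KO cells, 5 rose and 7 fell, with SPINK6 at 0.504 and 0.233 CPM in DKO libraries, against 40.0 and 43.9 CPM in XRCC4 KO libraries (-6.79 ± 0.18), and A2ML1 lower by 6.57 ± 0.23. In p53 KO cells 1 rose and 8 fell, and SPINK6 fell by 2.65 ± 0.35 where KLK5 and KLK7 rose. With ATRi in DKO cells 5 rose and 4 fell, among them A2ML1 by 2.56 ± 0.42 and SPINK6 by 1.58 ± 0.42. Medians over the inhibitors were 1.17, -0.21, -0.57, -0.46 and -0.20 in these 5 comparisons, against medians over all genes tested between -0.02 and 0.02. Over all genes, 15.1% rose at 5 d against untreated, 28.6% in XRCC4 KO, 25.9% in p53 KO and 26.1% with ATRi in DKO cells. In DKO against XRCC4 KO cells 32.7% fell. In the order of the medians, 4458 of 15190 genes, then 9330, 10789, 8796 and 9729 of 16632, were called in either direction. Whether the inhibitors depart from these shares was not tested.

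Of 14 proteases listed as activating kallikreins or as related serine proteases, 10 were tested. Over all genes, 28.6% rose in XRCC4 KO against WT cells and 32.7% fell in DKO against XRCC4 KO cells. In either direction 9330 and 10789 of 16632 genes were called in these comparisons. In XRCC4 KO cells at 3 d, 2 rose and 5 fell relative to WT: TMPRSS13, a membrane serine protease, rose by 3.32 ± 0.71 on 30 counts in XRCC4 KO libraries, against 3 in WT libraries (ratio 9.41, counting interval 2.93 to 48.2), while PLAT (-1.98 ± 0.05), PLAU (-1.84 ± 0.05) and ST14, which encodes matriptase (-0.98 ± 0.05), fell. In DKO against XRCC4 KO cells, 2 rose and 6 fell, and TMPRSS13 fell by 3.99 ± 0.76 on 2 counts in DKO libraries, against 30 in XRCC4 KO libraries (ratio 0.0654, counting interval 0.00757 to 0.258). Of 12 substrates and receptors, 9 were tested. DSG1, a desmosomal cadherin cut during shedding, had 1.46 ± 0.12 CPM in XRCC4 KO cells, against 0.03 ± 0.04 CPM in WT cells (SD, n = 2 each; 5.23 ± 0.76; 43 counts in XRCC4 KO, against 1 in WT libraries, a ratio of 40.4 with a counting interval of 6.88 to 1634), and CDSN, which encodes corneodesmosin, a target of KLK5 and KLK7, rose by 2.32 ± 0.35. IL1B, whose product KLK7 can cut, fell by 2.96 ± 0.05 in the same comparison. In that comparison 4 of the 9 rose and 4 fell, and 2 rose and 5 fell in DKO against XRCC4 KO cells, where DSG1 fell by 3.59 ± 0.58. With ATRi in XRCC4 KO cells CDSN rose by 2.11 ± 0.17 while KLK5 fell.

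Of the 7 other kallikrein genes, KLK1, which encodes tissue kallikrein, and KLKB1, which encodes plasma prekallikrein, were tested. In DKO against XRCC4 KO cells, where KLK5 and KLK10 fell, both rose. Of 16632 genes tested, 10789 were called in that comparison in either direction, and 32.7% fell. KLK1 averaged 0.485 CPM in DKO cells, against 0.0680 CPM in XRCC4 KO cells (2.71 ± 0.83), and KLKB1 0.484 CPM in DKO cells, against 0.0328 CPM in XRCC4 KO cells (3.57 ± 0.93). KLK1 had 17 counts over both DKO libraries, against 2 over both XRCC4 KO libraries, a ratio of 8.34 (95% counting interval 1.98 to 74.4). KLK1 was also called lower in XRCC4 KO than in WT cells, on 2 counts against 14 (ratio 0.134, counting interval 0.0148 to 0.585). KLKB1 had 17 counts in DKO, against 1 in XRCC4 KO libraries, a ratio of 16.7 (2.61 to 697). Of the 9 genes beside the cluster found in the table, CTU1, C19orf48 and SHANK1 were tested. In XRCC4 KO against WT cells CTU1 rose by 1.16 ± 0.16 and C19orf48 by 1.14 ± 0.05, where 28.6% of all genes rose.

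Epidermal differentiation genes were measured beside the KLK genes. Of 30 tested, 16 rose and 8 fell in XRCC4 KO against WT cells (median 0.68), 3 rose and 19 fell in DKO against XRCC4 KO cells (-1.42), 19 rose and 7 fell with ATRi in DKO cells (0.83), and 12 rose and 10 fell in p53 KO against WT cells (0.22). With ATRi in XRCC4 KO cells, where KLK5 and KLK10 fell, 18 rose and 2 fell (0.71). Of 25 interferon-stimulated genes, 0 rose and 25 fell in XRCC4 KO against WT cells, 24 rose and 1 fell in p53 KO against WT cells, and 25 rose with ATRi in DKO cells. All 15 mitotic genes rose in p53 KO against WT cells (median 2.20) and fell in XRCC4 KO against WT cells (-0.60). Over all genes, 28.6% rose in XRCC4 KO, 25.9% in p53 KO and 26.1% with ATRi in DKO cells. The share that fell was 32.7% in DKO against XRCC4 KO cells and 10.3% with ATRi in XRCC4 KO cells. In that order, 9330, 8796, 9729, 10789 and 2831 of 16632 genes were called in either direction. Whether the lists depart from these shares was not tested. Whether any of these gene groups plays a part in the KLK changes was not tested either.

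**Figure D5:**
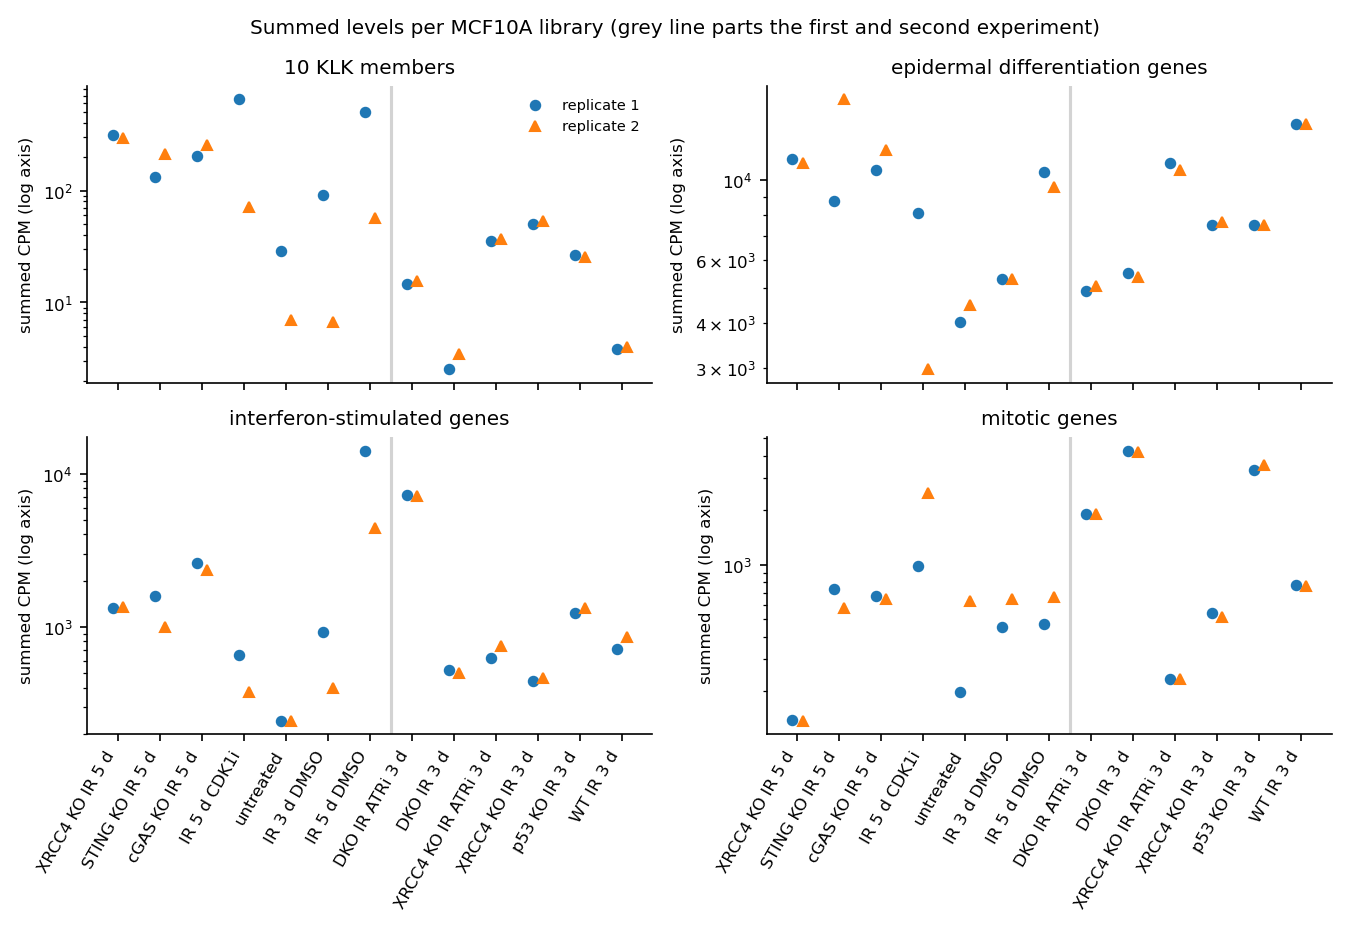
Summed CPM per MCF10A library on log axes for the 10 KLK genes, epidermal differentiation genes, interferon-stimulated genes and mitotic genes, with 1 point a library and a grey line between the first and second experiments. Summed KLK CPM is lowest in untreated replicate 2, IR 3 d replicate 2, the WT libraries at 3 d and the DKO libraries, and DKO with ATRi (14.7 and 15.6) lies above DKO (2.52 and 3.43).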

How the data were processed

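Estimated counts and FPKM values per gene were deposited by the authors for 32 libraries, and per the submitters' processing notes bcl2fastq, FastQC, STAR, Cuffnorm and DESeq2 were used on hg19. Versions, roles and the annotation are not given in the sources used here. The counts, which need not be whole, were rounded to whole numbers. Each experiment was fitted with all of its libraries in R 4.3.3 with edgeR 4.0.16 (TMM, filterByExpr by group, robust quasi-likelihood F test, two-sided), adjusted by Benjamini-Hochberg over 15190, 16632 and 15469 tested genes, and a call needed an adjusted p below 0.05. SE is the log2 fold change over the square root of F. Residual degrees of freedom were 7, 6 and 3, and 2 against 2 libraries cannot reach 0.05 in a permutation test. The fit was tested on simulated data. The experiments' libraries were assigned from the series text and sample names. The members and gene lists were chosen with earlier results of these data known. Named genes were all members, called genes of the lists (at most 3 per direction), and the 5 genes most like KLK10 and KLK7. Alternatives were DESeq2 1.42.0, limma 3.58.1 on log2 of FPKM plus 0.1 or 1, other size factors, no filter, an earlier form of the edgeR test, a replicate block and single libraries left out. One targeted gene is not reported here. Intervals and floors cover counting error only.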

Additional observations from a re-analysis of the deposited data

Results flagged for a closer look

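In 7 members the effect of p53 loss differed between XRCC4 KO and WT backgrounds at 3 d, tested as an interaction (edgeR). The difference, on the log2 scale, was -8.33 for KLK5, -7.79 for KLK7, -6.92 for KLK10, -6.57 for KLK8, -5.39 for KLK6, -3.01 for KLK11 and -2.43 for KLK14. The levels of KLK5 behind this were 0.315 CPM in DKO and 20.5 CPM in XRCC4 KO cells, and 2.12 CPM in p53 KO and 0.402 CPM in WT cells. In 4 members the effect of ATRi differed between DKO and XRCC4 KO cells, by 3.53 for KLK10, 3.38 for KLK6, 2.79 for KLK7 and 2.42 for KLK5. KLK10 averaged 9.51 CPM in DKO cells with ATRi and 1.15 CPM in DKO cells without, and 13.4 CPM in XRCC4 KO cells with ATRi and 18.7 CPM without. The p53 difference uses the WT group, where the KLK genes together summed to 3.81 and 3.98 CPM and KLK7 had 3 and 1 counts. Wild-type libraries at 3 d with DMSO in the first experiment summed to 90.7 and 6.69 CPM. Each group was 1 line, so the gene and the clone cannot be told apart.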

How the results depend on the processing

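Of 1635 member values under the alternatives, 1499 kept their side of the threshold, 91 lost it, 43 gained it and 2 gained it in the reversed direction. Direction was compared only where a value was called, so uncalled values may have changed sign. With the replicate block, KLK10 in cGAS KO went from -0.098 to 0.42 and KLK8 in STING KO from -0.31 to 0.12, all uncalled. The reversed values were KLK10 in cGAS KO (1.86) and in STING KO (1.39) against irradiated wild type without replicate 1 of the wild-type groups; the cause was not tested.

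Members called moved as follows, the number as reported standing last. For IR 5 d against untreated, they were 1 without a filter on low counts, 0 on FPKM in all 3 settings, 0 with only the compared libraries, 0 to 7 with single libraries left out and 4 to 9 without replicate 1 or 2 of every wild-type group, against 3. Leaving out those wild-type replicates gave 0 to 1 for IR 3 d against untreated, 1 to 4 for IR 5 d against 3 d, 4 to 5 for cGAS KO, 2 to 4 for STING KO and 2 to 4 for XRCC4 KO at 5 d, against 0, the count that single libraries left out gave as well. DESeq2 called 4 members for p53 KO (against 7), 4 for the p53 interaction (against 7, with no adjusted p for KLK6) and 1 for ATRi in XRCC4 KO cells (against 2), where FPKM called 0. The ATRi interaction had 2 on unfiltered FPKM, against 4. For p53 KO in RPE-1, 1 member was called without a filter, on FPKM or without RPE-1 WT replicate 1, against 0.

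Over all genes, counts moved by over 1.5 times for IR 3 d against untreated (1 to 1298, against 991), IR 5 d against untreated (1132 to 4992, against 4458), IR 5 d against 3 d (0 to 829, against 40), CDK1i (0 to 2668, against 1838), cGAS KO (359 to 3167, against 2055), STING KO (594 to 3145, against 2303), XRCC4 KO at 5 d (1412 to 4953, against 3758), p53 KO (5139 to 8787, against 8796), XRCC4 KO at 3 d (5922 to 9397, against 9330), ATRi in XRCC4 KO cells (589 to 2984, against 2831), DKO against p53 KO (4335 to 8275, against 8259), ATRi in DKO cells (5509 to 9676, against 9729), the ATRi interaction (1827 to 5751, against 5662), the p53 interaction (3190 to 7369, against 7265) and WT cGAS in RPE-1 (5483 to 9334, against 9254).

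The labels do not say that replicate numbers pair the libraries. Deviations of same-numbered libraries correlated at -0.265 to 0.439 over 21 pairs of groups in the first experiment (7 above 0.1, among them all 6 pairs of wild-type groups, at 0.245 to 0.439), -0.0493 to 0.0623 over 15 in the second and -0.0229 to 0.0295 over 3 in the third. With the replicate number as a block, 4 members were called for IR 5 d against untreated, KLK14 among them, against 3 without it, no other member count changed, and the count over all genes for IR 5 d against 3 d was 190. With few counts, depth limits KLK6, KLK9, KLK12 and KLK13 most.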
